A study of Mus musculus with 8 samples.

Results

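The genes described here are 9 markers used for pancreatic duct cells and for acinar cells that take on duct features: the transcription factors Sox9 and Onecut1, the keratins Krt7, Krt8, Krt18, Krt19 and Krt20, the secreted phosphoprotein Spp1 and the chloride channel Cftr. They were chosen by gene symbol as marks of acinar-to-ductal metaplasia, and all 9 had a row among the 16888 genes measured. Of these, 7 passed the filter on low values and entered the test, while Onecut1 and Cftr lay under it. RNA was sequenced from whole pancreas of mice given cerulein repeatedly, a peptide that overstimulates acinar cells and brings on acute pancreatitis. The 4 libraries called CKO1 to CKO4 came from mice with Anxa1 knocked out in the myeloid lineage only, and the 4 called WT1 to WT4 from Anxa1 flox/flox mice. Both groups had cerulein, so the libraries compare the 2 genotypes within pancreatitis, and no untreated pancreas was analysed here. Annexin A1 is a phospholipid-binding protein of myeloid and other cells that restrains inflammation. The labels name neither the Cre driver nor the age of the mice, and they do not say whether the 4 libraries of a group were separate animals, so each p-value measures the spread between these libraries.

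In the healthy pancreas, acinar cells make the digestive enzymes and duct cells carry the juice away and add bicarbonate and fluid. When the tissue is injured, acinar cells can turn down their enzymes and switch on duct genes, with Sox9 and Krt19 among the usual marks of that change. Keratins of simple epithelia assemble as pairs of a type II chain (Krt7, Krt8) with a type I chain (Krt18, Krt19, Krt20), and a chain left without a partner is unstable. Acinar cells themselves hold Krt8 and Krt18, while Krt7 and Krt19 belong mainly to ducts.

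Sox9 was the member that fell in CKO, to about 0.508 of its mean level in WT. Krt7, Krt19, Krt20 and Spp1 also had lower means in CKO but missed the threshold, with 1 CKO library, CKO3, within the WT range for each, and Krt8 had nearly the same mean in both groups. Relative to Krt8, Krt18 was lower in all 4 CKO libraries than in any WT library, a separation from Krt8 that 18% of all tested genes shared. Duct transport genes and Cftr gave no call, and among the wider set of duct, metaplasia and epithelial genes the calls that held under every setting tried were those of Cd24a and Krt23.

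Depth was similar in all libraries, with totals of 30469002 to 34359802 reads recovered from the values, and 3 reads over 1 kb of gene amounted to 0.0873 to 0.0985 RPKM (reads per kilobase of gene, scaled to a fixed library size). Such floors cover counting error only. Anxa1 was at 4.84, 4.76, 5.21 and 7.13 RPKM in libraries CKO1 to CKO4, against 8.44, 14.7, 7.05 and 9.74 RPKM in WT1 to WT4, and CKO4 lay just above WT3. Its log2 change was -0.73 (limma, Benjamini-Hochberg adjusted p = 0.0417), and over the other settings its adjusted p ran from 0.0358 to 0.129. Of the 8513 genes in the fit, 610 were called at an adjusted p under 0.05 (7.17%). Higher in CKO were 121 (1.42%), and 489 were lower (5.74%). Over all tested genes the median log2 change came to -0.12, so that a change of this size in RPKM is shared by the typical gene. With each library centred on its median the split was 305 higher and 267 lower, with acinar enzymes left out of the totals 223 and 436, and with a trend on gene length removed 354 and 242.

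Of the 7 members in the fit, limma called 1 lower and 0 higher. By that share, 1 of 7 stands beside 5.74% of all tested genes called lower, and 5 of the 7 were under 0.05 before adjustment, beside 27.3% of all tested genes. Their median log2 change was -0.52 and 6 of them were negative, against 70.4% of all tested genes. Islet genes had changes of the other sign: all 11 tested were positive, with a median log2 change of 0.42 and 1 call, Gcg, the glucagon gene, higher in CKO at 202 ± 28.7 against 139 ± 26.8 RPKM (limma, adjusted p = 0.0451). That call was lost in 10 of 16 other settings (limma adjusted p up to 0.121), among them leaving out any library but CKO1 or WT2. The part of the islet genes in the members' levels was not tested. In whole tissue, fewer cells of a type and less RNA per cell cannot be told apart, and this holds for every level below.

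Sox9 is the transcription factor that maintains duct identity in the adult pancreas and marks progenitors in the embryo (mm10 chr11:112782224-112787760, plus strand). It measured 2.44, 5.23, 5.29 and 3.92 RPKM in libraries CKO1 to CKO4, against 8.37, 7.23, 10.04 and 7.58 RPKM in WT1 to WT4. CKO1 was the lowest library, and the highest CKO library stayed under the lowest WT library, so the groups did not overlap. Among the 7 tested members this separation was found for 1, Sox9, beside 16.2% of all tested genes with every CKO library below every WT library. The means were 4.22 ± 1.35 and 8.30 ± 1.25 RPKM (SD, n = 4), a 1.97-fold difference, which rested on 346 to 749 reads per CKO library and 957 to 1299 per WT library. On the log2(RPKM + 1) scale the change was -0.87 ± 0.19 (SE; limma, Benjamini-Hochberg adjusted p = 0.0212). The change stayed negative in all 16 other settings and passed in 12 of them. It missed the threshold with no filter on low values (adjusted p = 0.0559) and without CKO4 (0.0577), WT1 (0.0597) or WT3 (0.0538), and with median centring, acinar-free totals and the length trend removed it was 0.0160, 0.0176 and 0.0133.

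Onecut1, also called HNF6, acts with Sox9 in forming the ducts of the embryo (mm10 chr9:74861921-74891781, plus strand). It was barely measured here: its values were 0.0801, 0.128, 0.370 and 0.330 RPKM in libraries CKO1 to CKO4, against 0.310, 0.802, 0.474 and 0.1799 RPKM in WT1 to WT4. These are 5 to 23 reads per CKO library and 10 to 47 per WT library. The groups overlapped widely, and WT2 alone reached above 0.5 RPKM. In a fit with no filter on low values, 2.75% of all genes were called. The log2 change of Onecut1 there was -0.22 ± 0.14 (SE, limma adjusted p = 0.386), and no difference was detectable with so few reads.

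**Figure D1:**
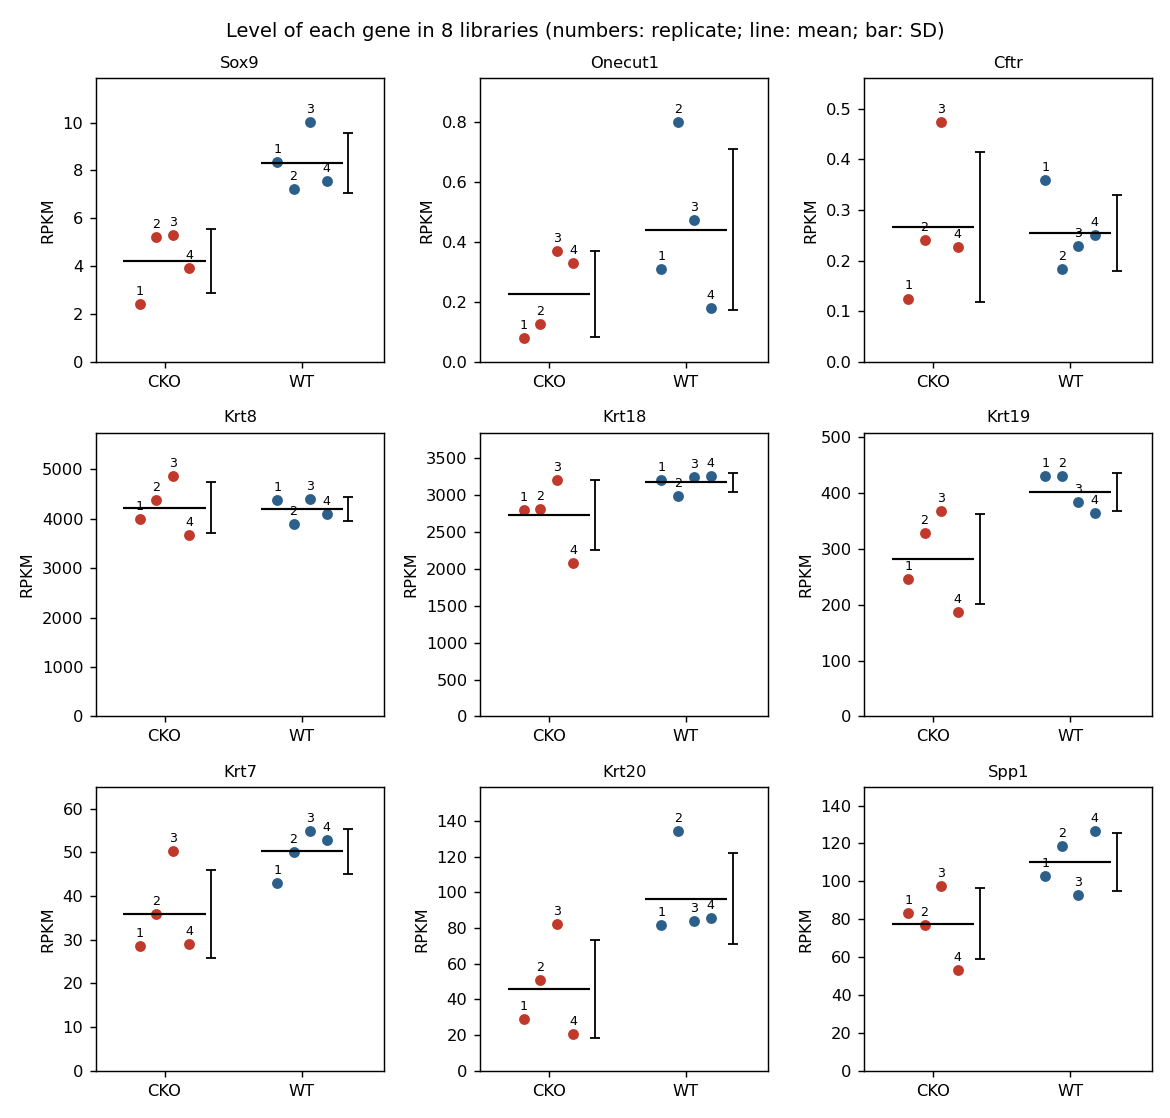
Level of each of the 9 genes in RPKM (vertical axis, from 0) in the 4 CKO and 4 WT libraries; each point is a library with its replicate number, the line is the group mean and the bar beside it the SD. The CKO and WT points of Sox9 are apart, CKO3 is the highest CKO point in every panel, and Krt8 lies at similar heights in both groups.

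Krt8 and Krt18 form the basic filament pair of acinar, duct and other simple epithelia. Krt8 (mm10 chr15:101996698-102004482, minus strand) and Krt18 (mm10 chr15:102028180-102032027, plus strand) lie side by side, with 23697 bases and no other protein-coding gene between them, while Krt7 sits 566384 bases away on the same chromosome, in the type II cluster. Krt20 and Krt19 lie on chromosome 11 in the type I cluster, 702659 bases apart. The windows from 250 bases before to 50 after the RefSeq start (GRCm38.p6) are shown for the paired genes and for Krt20. None of these genes was called, and Krt20 had the largest log2 change of the tested members. Krt8 is at chr15:102004293-102004592 on the minus strand, Krt18 at chr15:102027966-102028265 on the plus strand and Krt20 at chr11:99438104-99438403 on the minus strand. Capitals mark matches, on either strand, to any of 6 motifs. The core promoter box was searched as TATAAA and the motif of TEAD factors as GGAATG. For the factor AP-1 the letters were TGANTCA, and for SOX proteins they were ACAATG. The box bound by Sp1 was searched as GGGCGG, and the Onecut1 motif, in short form, as ATTGATT.
Krt8: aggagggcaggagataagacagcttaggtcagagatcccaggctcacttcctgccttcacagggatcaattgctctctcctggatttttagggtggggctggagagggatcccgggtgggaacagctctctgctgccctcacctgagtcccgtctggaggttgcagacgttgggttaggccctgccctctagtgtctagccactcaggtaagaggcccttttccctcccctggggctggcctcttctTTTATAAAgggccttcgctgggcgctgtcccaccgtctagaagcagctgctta
Krt18: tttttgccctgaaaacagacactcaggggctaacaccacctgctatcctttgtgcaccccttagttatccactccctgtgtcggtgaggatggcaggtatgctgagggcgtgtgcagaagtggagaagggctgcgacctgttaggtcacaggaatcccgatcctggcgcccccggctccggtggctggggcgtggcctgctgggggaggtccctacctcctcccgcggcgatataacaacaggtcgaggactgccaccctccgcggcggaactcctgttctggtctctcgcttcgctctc
Krt20: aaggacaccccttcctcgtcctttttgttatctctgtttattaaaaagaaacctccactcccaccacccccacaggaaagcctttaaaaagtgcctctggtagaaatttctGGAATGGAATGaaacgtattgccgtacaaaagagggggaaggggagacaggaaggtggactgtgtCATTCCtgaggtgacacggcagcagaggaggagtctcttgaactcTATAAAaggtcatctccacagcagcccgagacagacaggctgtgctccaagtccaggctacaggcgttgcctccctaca

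The 3 windows share little of these motifs. Krt20 held GGAATG at 3 places, 1 of them on the other strand, and TATAAA starting 29 bases before the start. Krt8 held TATAAA on both strands in overlapping letters next to the annotated start, and Krt18 held none of the 6 motifs. The Krt7 window held GGGCGG at 4 places and no other motif searched. Of 32851 mouse promoter windows of the same length, 14.7% held the TEAD motif, 13.6% the core promoter box and 35.7% the Sp1 box. The AP-1, SOX and Onecut1 motifs, found in 7.81%, 12.6% and 2.86% of all windows, were in none of the windows of the 7 members matched in the RefSeq table; Sox9 and Krt19 were not matched. These matches describe letters in a window and are not shown to be sites.

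Krt8 was the most abundant member, at 3993, 4372, 4860 and 3661 RPKM in libraries CKO1 to CKO4, against 4371, 3884, 4401 and 4098 RPKM in WT1 to WT4. The highest and the lowest library were both CKO, and the WT values lay between them. The means were 4222 ± 516 and 4188 ± 244 RPKM, a log2 change of 0.01 ± 0.10 (SE; limma, adjusted p = 0.981) with a 95% interval of -0.22 to 0.23. That change turned negative when CKO2, CKO3, WT2 or WT4 was left out, the furthest value being -0.07 without CKO3.

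Krt18, the type I partner of Krt8, stood at 2801, 2819, 3209 and 2074 RPKM in libraries CKO1 to CKO4, against 3206, 2983, 3240 and 3258 RPKM in WT1 to WT4. CKO4 was well under the rest, CKO1 and CKO2 were under all WT libraries, and CKO3 lay within the WT range. The means were 2726 ± 474 and 3172 ± 127 RPKM. The log2 change of -0.24 ± 0.12 did not pass (SE; limma, adjusted p = 0.240, with a 95% interval of -0.50 to 0.03), and it was -0.03 with the length trend removed. In each of the 8 libraries Krt8 was above Krt18 and Krt18 above Krt19, with no overlap between the 3 genes in RPKM, which is per length.

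Krt19 is the type I keratin of duct cells and lacks most of the tail that other keratins have (mm10 chr11:100140810-100148665, minus strand). It measured 246, 329, 368 and 188 RPKM in libraries CKO1 to CKO4, against 430.0, 430.3, 384 and 364 RPKM in WT1 to WT4. CKO4 and CKO1 were the lowest libraries, and CKO3, just above WT4, made the groups overlap. The means were 282 ± 81.0 and 402 ± 33.7 RPKM, a log2 change of -0.55 ± 0.18 (SE; limma, adjusted p = 0.0798). Without CKO3, its highest CKO library, the change was -0.69 and passed (adjusted p = 0.0323). That was its only pass in 16 other settings, where the adjusted p reached 0.171.

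Krt7, the type II chain of duct and other glandular epithelia, gave 28.6, 35.9, 50.2 and 29.0 RPKM in libraries CKO1 to CKO4, against 43.0, 50.01, 55.0 and 52.8 RPKM in WT1 to WT4 (mm10 chr15:101411043-101430313, plus strand). Only CKO3 reached into the WT range, above WT1 and WT2. The means were 35.9 ± 10.1 and 50.2 ± 5.18 RPKM, a log2 change of -0.50 ± 0.17 (SE; limma, adjusted p = 0.0799), which was -0.67 without CKO3 (adjusted p = 0.0151). That was its only pass in 16 other settings, and without CKO4 the adjusted p was 0.192.

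Krt20 is a type I keratin of gut lining and urothelium that is also found, in people, in part of the tumours of pancreatic ducts (mm10 chr11:99428403-99438150, minus strand). Its values were 28.9, 50.9, 82.3 and 20.9 RPKM in libraries CKO1 to CKO4, against 81.8, 134.5, 83.9 and 85.3 RPKM in WT1 to WT4. WT2 stood far above the other WT libraries, and CKO3 lay among them while the rest of CKO was well below. The means differed 2.11-fold, 45.8 ± 27.5 against 96.4 ± 25.5 RPKM, the largest fold difference of the 7 tested members. The log2 change was -1.21 ± 0.38 (SE; limma, adjusted p = 0.0860), -1.56 without CKO3 (adjusted p = 0.0211) and -1.05 without WT2 (adjusted p = 0.204). Genes of intestine and stomach, which also express Krt20, summed to 1.06 to 7.502 RPKM in CKO and 0.717 to 1.27 RPKM in WT, over 11 genes. The library with the highest sum was CKO4, with Apoa1 at 3.43 RPKM and Fabp1 and Apoa4 at 1.48 RPKM each, and it was the library with the lowest Krt20.

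Spp1, osteopontin, is a secreted phosphoprotein made by duct cells, by metaplastic cells and also by macrophages (mm10 chr5:104435118-104441050, plus strand). It measured 83.2, 76.8, 97.7 and 53.0 RPKM in libraries CKO1 to CKO4, against 103, 119, 92.5 and 127 RPKM in WT1 to WT4. In all, 3 of 4 CKO libraries were below every WT library, and CKO3 was above WT3. The means were 77.7 ± 18.6 and 110.1 ± 15.4 RPKM, a log2 change of -0.52 ± 0.17 (SE; limma, adjusted p = 0.0799), and without CKO3 it was -0.64 (adjusted p = 0.0396). That was its only pass in 16 other settings, where the adjusted p reached 0.177. Macrophage genes also had negative log2 changes, all 17 of those tested, with a median of -0.59. Of these, 10 had an unadjusted p under 0.05, beside 27.3% of all tested genes, and 2 were called lower, Ccr2 (-0.87, adjusted p = 0.0359) and Tyrobp (-0.76, adjusted p = 0.0470). Both calls were lost with no filter and without CKO2, CKO4 or any WT library. Of 16 other settings, Ccr2 lost its call in 7 (limma adjusted p up to 0.0854) and Tyrobp in 10 (up to 0.128). The 21 macrophage genes summed to 289 to 570 RPKM in CKO and 525 to 942 RPKM in WT, with CKO3 the highest of the CKO libraries, and none was at 0 in all libraries. Their part in the Spp1 level was not tested. Of 7 tested receptor chains for Spp1, the hyaluronan receptor Cd44 and integrin subunits, limma called 0, 2 had an unadjusted p under 0.05 and limma-voom called 0. Cd44 was at 21.8 ± 4.49 against 28.4 ± 2.51 RPKM (adjusted p = 0.103), and of 16 other settings it passed only without CKO3 (0.0378).

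Cftr, the chloride and bicarbonate channel of the duct cell's apical membrane, was found at 0.125, 0.240, 0.474 and 0.226 RPKM in libraries CKO1 to CKO4, against 0.359, 0.183, 0.229 and 0.250 RPKM in WT1 to WT4 (mm10 chr6:18170687-18322768, plus strand). Both the lowest and the highest library were CKO, and these are 27 to 102 reads per CKO library against 37 to 72 per WT library. In the fit with no filter its log2 change was 0.01 ± 0.08 (SE; limma, adjusted p = 0.975), with a 95% interval of -0.18 to 0.20. Cftr and Onecut1 were the members with the least RNA, and neither ranked above the other throughout: Onecut1 was the higher in 3 of 8 libraries. In the middle of the order, Spp1 was above Krt20 in 7 of 8 libraries and Krt20 above Krt7 in 7 of 8, so these neighbours overlapped, while Sox9 lay below all 3 in every library. Ranked by RPKM among all 16888 genes, Krt8 was between places 23 and 28 and Krt18 between 28 and 32 in the 8 libraries, and Sox9 between 2524 and 5655.

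Within CKO the libraries ranked alike over the members. CKO3 was the highest CKO library for all 9 genes, and the lowest was CKO1 for 4 (Sox9, Onecut1, Krt7 and Cftr) and CKO4 for 5 (Krt8, Krt18, Krt19, Krt20 and Spp1). Within WT the order differed from gene to gene: WT2 was the highest for 3 members and the lowest for 4, and no WT library was highest for more than 3. Acinar digestive enzymes were summed with other acinar secretory genes such as Reg1, Spink1 and Zg16, 34 genes in all, called acinar enzymes throughout. They took 61.6, 56.6, 53.4 and 61.4% of the reads in libraries CKO1 to CKO4, against 56.5, 55.7, 54.8 and 57.9% in WT1 to WT4. CKO3 thus had the smallest enzyme share, and CKO1 and CKO4 the largest. The group means of 58.2 ± 3.96 and 56.2 ± 1.32% differed by 2.04 percentage points (exact two-sided permutation test over 70 arrangements, p = 0.343, the smallest possible being 0.0286). With the enzymes left out of the library totals, Sox9 kept its call and the adjusted p was 0.0618 for Krt7, 0.0665 for Krt19, 0.0595 for Krt20 and 0.10 for Spp1. Without CKO3, 5 of the 7 members were called lower, beside 7.17% of the 8367 genes tested in that fit. Since CKO3 was the highest CKO library for all 9 genes, leaving it out lowers each CKO mean.

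**Figure D2:**
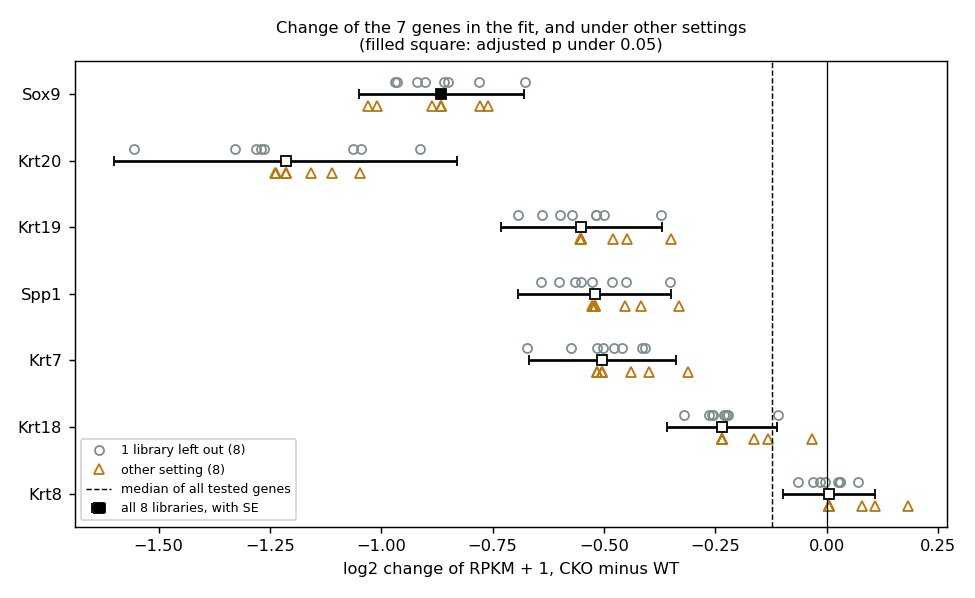
Log2 change of RPKM + 1 (horizontal axis, CKO minus WT) of the 7 tested members: squares are the fit on all 8 libraries with its SE and are filled where the adjusted p is under 0.05, circles leave out 1 library each and triangles are the 8 other settings. The dashed line is the median of all tested genes at -0.12; Sox9 is the filled square, every mark of the 6 genes above Krt8 is negative, and the marks of Krt8 lie around 0.

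Setting the genes against each other within a library removes a scaling shared by all its genes. It does not remove a trend on gene length or a difference in cell types. The sum of the type II members was 3690 to 4911 RPKM in CKO and 3934 to 4456 RPKM in WT, while the sum of the type I members was 2283 to 3659 RPKM in CKO and 3548 to 3718 RPKM in WT. The ratio of type II to type I was 1.31, 1.38, 1.34 and 1.62 in CKO1 to CKO4 and 1.19, 1.11, 1.202 and 1.12 in WT1 to WT4. Every CKO library was above every WT library, CKO4 furthest, with means of 1.41 ± 0.140 and 1.15 ± 0.0469 (SD, n = 4). This ratio is set by the abundant pair, Krt8 over Krt18, which was 1.43, 1.55, 1.51 and 1.77 in CKO and 1.36, 1.30, 1.36 and 1.26 in WT, again with no overlap. The 5 member keratins held 99.4 to 99.8% of all keratin RPKM.

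Per 1000 RPKM of Krt8, Krt19 was at 51.3 to 75.6 in CKO and 87.1 to 111 in WT. Krt20 was at 5.71 to 16.9 in CKO and 18.7 to 34.6 in WT on this scale, and Sox9 at 0.611 to 1.196 and 1.85 to 2.28. With Krt18 and Spp1, 5 of the 6 other tested members had every CKO library below every WT library relative to Krt8, and Krt7 overlapped (7.15 to 10.3 and 9.85 to 12.9). The same was true of 18% of all tested genes set against Krt8, so the separation is common when Krt8 is the yardstick. Against the duct keratin Krt19 the groups overlapped: Krt20 was at 11.1 to 22.4 per 100 RPKM of Krt19 in CKO and 19.02 to 31.3 in WT, and Krt7 at 10.9 to 15.4 and 10.01 to 14.5. On this scale Sox9 overlapped as well, at 0.993 to 2.09 in CKO and 1.68 to 2.62 in WT. Sox9 per 100 RPKM of Epcam, an adhesion molecule of epithelial cells, also overlapped, at 5.26 to 12.4 in CKO and 10.5 to 18.3 in WT. Krt19 and Epcam, though not called, had lower means in CKO themselves (log2 change -0.55 and -0.41). Setting Sox9 against either of them narrows its difference.

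**Figure D3:**
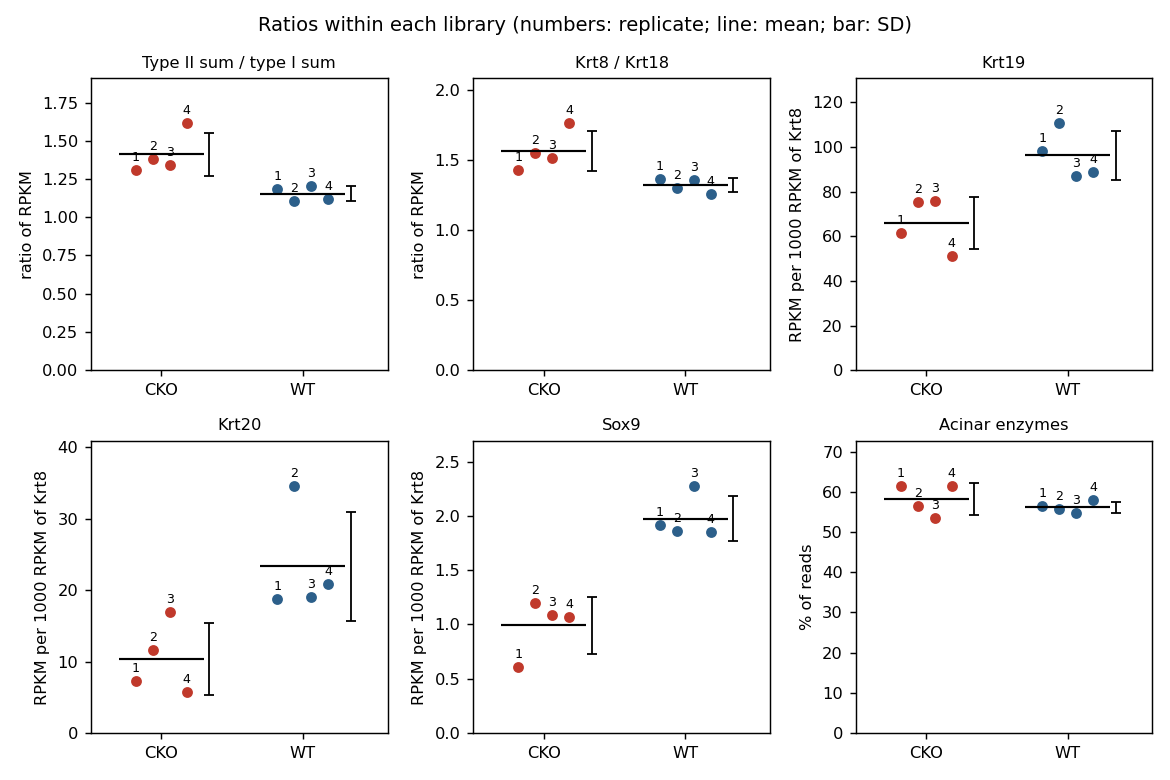
Ratios within each library (vertical axes, from 0) for CKO and WT: type II over type I keratins, Krt8 over Krt18, then Krt19, Krt20 and Sox9 in RPKM per 1000 RPKM of Krt8, and the percentage of reads in acinar enzymes; points are libraries with replicate numbers, lines are means and bars SD. The CKO and WT points are apart in the first 5 panels (1.31 to 1.62 against 1.11 to 1.202 for type II over type I) and overlap for the enzyme share.

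Profiles over the 8 libraries were compared among 4065 genes with a mean of at least 5 RPKM, by the root mean square difference of centred log2(RPKM + 1). Nearest to Sox9 were the lipid droplet protein gene Plin2 (0.191), the antiproliferative gene Btg1 (0.203) and Vps37b (0.204), an ESCRT subunit gene. Since the profiles include the difference between the genotypes, genes near Sox9 are lower in CKO by this choice: the log2 change was -0.53 for Plin2, -0.97 for Btg1 and -0.75 for Vps37b. Nearest to Krt20 were Ceacam1 (0.282), H2-Aa (0.322) and Ccl6 (0.327), the last 2 being genes of immune cells. Krt19 had Nbl1 (0.0758), Trim8 (0.0854) and Arrdc1 (0.0887) closest. Among the members themselves Krt8 and Krt18 were the closest pair at 0.148, yet Krt18 was in place 1063 among the genes nearest to Krt8 and Krt8 in place 692 among those nearest to Krt18.

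Other genes of the duct program were looked at by lists. Of 20 duct transcription factors and cilia genes 9 were tested, 2 were called lower and 0 higher, with a median log2 change of -0.10. Foxa2, a pioneer factor of foregut epithelium, fell from 3.39 ± 0.420 RPKM in WT to 1.88 ± 0.475 in CKO (-0.62; limma, adjusted p = 0.0242). Sox4, which acts in endocrine and duct progenitors, fell from 4.13 ± 0.267 to 2.01 ± 0.975 RPKM (-0.82, adjusted p = 0.0257). The call of Foxa2 was lost without WT1 (0.0694) or WT4 (0.0612), with median centring (0.0565), with the length trend removed (0.0672) and with no filter (0.0502), and that of Sox4 without any of 5 libraries, CKO4, WT1, WT2, WT3 and WT4 (up to 0.0735), and with no filter (0.0653).

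Duct transport genes gave no call. Of 16, 11 were tested, limma called 0, 1 had an unadjusted p under 0.05 and limma-voom called 0, with a median log2 change of -0.17. That 1 gene was Slc12a2, the sodium, potassium and chloride cotransporter that loads secretory cells with chloride, at 3.55 ± 0.787 against 5.37 ± 0.726 RPKM (adjusted p = 0.0575). It passed without CKO3 (0.0318), with the replicate block (0.0389), and under each of the 3 other scalings (0.0138 to 0.0383). The anion exchanger gene Slc4a2 was at 7.75 ± 1.86 against 6.24 ± 1.15 RPKM (adjusted p = 0.353).

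Among 26 metaplasia and mucous genes, 23 were measured and 11 tested, of which 2 were called lower and 0 higher, with a median log2 change of -0.39. Cd24a, a surface glycoprotein of duct and progenitor cells and also of immune cells, fell from 226 ± 30.7 to 127 ± 13.04 RPKM (-0.82, limma adjusted p = 0.00268). Its call held in all 16 other settings, and the part of immune cells in its level was not tested. Mmp7, a protease of metaplastic ducts, fell from 6.50 ± 1.07 to 4.22 ± 0.654 RPKM (-0.52, adjusted p = 0.0442), and that call was lost in 12 of 16 settings, among them leaving out any library but CKO3 (up to 0.128). The tight junction gene Cldn4, named after its values were seen, was at 331, 360, 381 and 48.2 RPKM in libraries CKO1 to CKO4, against 925, 817, 834 and 651 RPKM in WT1 to WT4. CKO4 was far below the other CKO libraries and the groups did not overlap. Its log2 change of -1.88 missed the threshold on all libraries (adjusted p = 0.132) and was -1.16 without CKO4 (adjusted p = 0.00142). Leaving out CKO4, its lowest library, was the only setting in which Cldn4 passed. The gastric mucins were nearly silent, with Muc5ac at 0.119 RPKM or less in every library and Muc6 at 0.00534 or less. Tff2, the trefoil peptide gene of gastric mucous neck cells, also named after its values were seen, was high in both groups at 1144 ± 162 and 1070 ± 112 RPKM (adjusted p = 0.647). With no filter on low values 1 gene of this list was called higher in CKO: Agr2, a protein disulfide isomerase gene of mucous cells, named after its values were seen, was at 0.347 to 0.613 RPKM in CKO and 0.0413 to 0.126 RPKM in WT, with no overlap (log2 change 0.47; limma, adjusted p = 0.0112).

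Of 25 other genes of simple epithelium, 22 were tested, with 2 called lower, 0 higher and a median log2 change of -0.10. The change was negative for 14 of them and positive for 8. Krt23, a type I keratin whose gene lies 39824 bases from Krt20, fell from 4.45 ± 0.407 to 1.97 ± 0.437 RPKM (-0.88; limma, adjusted p = 0.00266), and its call held in all 16 other settings. Spint1, a surface protease inhibitor, fell from 68.4 ± 6.21 to 48.6 ± 7.49 RPKM (-0.49, adjusted p = 0.0406), a call lost in 11 of 16 settings, among them leaving out CKO2, CKO4 or any WT library (up to 0.0975). Epcam was at 44.8 ± 9.01 against 59.0 ± 6.96 RPKM (limma, adjusted p = 0.111). Every CKO library was below every WT library for Epcam, as for 16.2% of all tested genes. The tight junction gene Tjp1 went the other way, at 12.0 ± 2.53 in CKO against 8.20 ± 2.32 RPKM in WT. Its log2 change was 0.51 (limma, adjusted p = 0.115), and it passed with median centring (0.0391) and with the length trend removed (0.0334). Of the 24 other keratins, 20 stayed under 1 RPKM in every library. Krt80 was at 21.0 ± 6.17 and 18.4 ± 2.61 RPKM (adjusted p = 0.687), and Krt17 at 4.34 ± 1.61 and 5.14 ± 0.891 RPKM (adjusted p = 0.478). Mesothelium, which covers the organ and also carries Krt7, Krt8, Krt18 and Krt19, had 12 marker genes summing to 6.77 to 18.2 RPKM in CKO and 6.97 to 15.1 RPKM in WT, highest in CKO3, and their part in the keratin levels was not tested.

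Partners of the keratin network, 20 of 23 of them tested, gave 1 lower and 0 higher call and a median log2 change of 0.08. Sfn, an epithelial member of the 14-3-3 family, adaptor proteins that bind keratins, fell from 56.0 ± 12.2 to 33.9 ± 8.09 RPKM (-0.71; limma, adjusted p = 0.0413), a call lost in 11 of 16 settings, among them leaving out CKO3, CKO4 or any WT library (up to 0.113). Lmna, the gene of nuclear lamins A and C, ran the other way: it was at 20.9 to 30.6 RPKM in CKO and 18.02 to 18.7 RPKM in WT, with no overlap. Its log2 change was 0.39 (adjusted p = 0.0766), and it passed under each of the 3 other scalings (0.00940 to 0.0138).

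**Figure D4:**
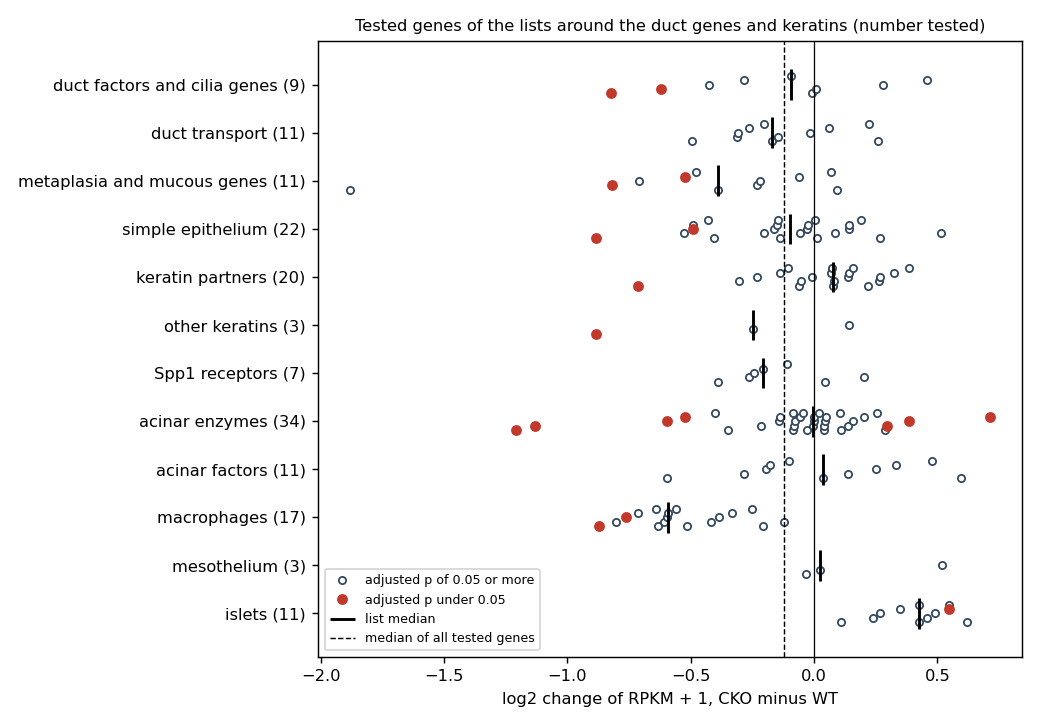
Log2 change of RPKM + 1 (horizontal axis, CKO minus WT) of each tested gene in 12 lists, with the number tested in brackets; filled points have an adjusted p under 0.05, the short bar is the median of the list and the dashed line the median of all tested genes. Medians of the duct, transport and epithelial lists lie near the dashed line at -0.12, that of the metaplasia and mucous genes is at -0.39 with Cldn4 far to the left at -1.88, and that of the macrophage genes is at -0.59.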

How the data were processed

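RNA of 8 whole mouse pancreas samples was sequenced on an Illumina instrument, per the labels. The build was mm10, per the submitters' processing notes. The aligner, counter and annotation were not given in the sources used here. Values were deposited as RPKM, a unit read from the numbers: 16056 of 16068 genes (99.93%) gave whole reads within 0.05 reads at a fixed gene length and library total, and every member did. Another unnamed deposited column of 8 numbers, whose meaning no header gives, was not used.

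From these values limma 3.58.1 in R 4.3.3 was run on log2(RPKM + 1) of genes reaching 1 RPKM in 4 or more libraries, with genotype as the only term, a mean trend, robust variances and Benjamini-Hochberg adjustment over all tested genes at 0.05. Folds are ratios of mean RPKM. Log2 changes understate those of low genes. Ratios and list counts carry no test of their own. The rest used Python 3.11.15 with pandas 2.3.3, SciPy 1.17.1, NumPy 2.4.6 and, for plots, Matplotlib 3.10.9, and gene positions are from GENCODE M21. The recovery and the fit were tested on simulated data.

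The members and lists were chosen with earlier results of these data known. Genes named were the members, the 4 genes or fewer that led each list by unadjusted p, and the 3 nearest profiles of a member; Cldn4, Tff2 and Agr2 were named after their values were seen, as were genes described by their level alone, and some listed genes are not reported here. The other settings were a pseudocount of 0.1, no filter, variances without a trend, a replicate block, limma-voom on the whole reads, median centring, totals without acinar enzymes, leaving out each library, and, chosen after seeing the data, removing a trend on gene length.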

Additional observations from a re-analysis of the deposited data

Results flagged for a closer look

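Within groups of 4 libraries, a single library standing apart from the others was looked for in 58 sets of values (9 members and 20 ratios or sums, in each genotype), and chance gives about 1 such set in 20. In 5 WT sets 1 library stood apart, and in CKO none did. Krt20 was at 134.5 RPKM in WT2, while the other WT libraries lay between 81.8 and 85.3 RPKM, and the same library was high in Krt20 relative to Krt8, at 34.6 per 1000 RPKM. The sum of the type I keratins in WT2 was 3548 RPKM, below the other WT libraries. Krt7 per 1000 RPKM of Krt8 was low in WT1, at 9.85, and Sox9 per 1000 RPKM of Krt8 was high in WT3, at 2.28. WT2 was also the library with the highest macrophage sum at 942 RPKM and the highest adipocyte sum at 143 RPKM.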

How the results depend on the processing

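Sox9, Krt7, Krt18, Krt19, Krt20 and Spp1 had negative log2 changes in all 16 other settings. Krt8 ran from -0.065 (without CKO3) to 0.071 (without CKO4) with 1 library left out, and was also negative without CKO2, WT2 or WT4. Tff2 turned negative without CKO4 (-6.99e-05). The count of members called was 0 with no filter and 0 to 5 with 1 library left out, being 5 without CKO3 and 0 without CKO4, WT1 or WT3. The count over the duct, metaplasia, epithelial, keratin and Spp1 receptor lists was 7, all lower in CKO. It was 4 with no filter, 2 lower (Cd24a, Krt23) and 2 higher (among them Agr2), 4 with limma-voom, all lower, and 2 to 8 with 1 library left out, all lower. It stayed 7 with median centring (4 lower, 3 higher), acinar-free totals (6 and 1) and the length trend removed (5 and 2). Over all genes, 610 calls became 185 to 686 with 1 library left out: 228 without CKO2, 267 without CKO4, 185 without WT1, 245 without WT2, 297 without WT3 and 254 without WT4. Fewer libraries enter those fits. Whether the replicate numbers pair the libraries is not known. The correlations of deviations within a number were -0.12, -0.32, 0.14 and 0.03, and 1 of 8 libraries correlated best with its own number. Such correlations cannot exclude a shared origin. With the replicate number as a block 548 genes were called, Sox9 kept its call (adjusted p = 0.0219) and no other member passed. Few reads limit Onecut1 and Cftr.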
